A study of Mus musculus with 56 samples.

Results

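Olig2, Gpr17, Vcan, Tnr and Tmeff2 are genes of oligodendrocyte precursors, and their levels were followed through mouse brain tumours made by N-myc, the neural stem cells (NSCs) behind those tumours and normal cerebellum. Each gene has 1 probe that the supplied annotation assigns to its symbol alone, so the set holds 5 probes of 17831 and 5 genes of 15224. The genes were chosen by their differences between tumours of different origin in these same arrays, so those differences are described here and carry no test.

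Expression was measured in 56 samples, each on its own Affymetrix whole-transcript array, all of FVB/N background. There were 32 medulloblastomas of GTML mice, in which a glutamate transporter promoter drives a tetracycline-controlled MYCN transgene, and 5 normal cerebella of GTML pups at postnatal day 7 (P7) on doxycycline (Dox), which keeps that transgene off. A transplant series held 9 orthotopic tumours, grown in mouse brain from NSCs transduced with N-myc(T58A), a mutation-stabilised form: 3 from embryonic day 16 cerebellum (E16C), 3 from postnatal day 0 cerebellum (P0C) and 3 from postnatal day 0 forebrain (P0F). It also held single cultures of N-myc(T58A)-transduced NSCs (E16C and P0C), of NSCs transduced with GFP as controls (E16C, P0F, and P0C both GFP-sorted and unsorted) and of cells derived from 1 tumour of each origin, and another culture came from a GTML tumour. There was no N-myc NSC culture of P0F origin. Groups follow the titles. The cell type tags of 3 E16C samples name other E16C samples: that of tumour 3 names the tumour-derived cells, that of those cells the N-myc NSCs and that of the N-myc NSCs the GFP NSCs, while their origin tags match the titles. The titles call the tumours and cerebella biological replicates, but leave unsaid whether tumours of the same origin came from separate NSC cultures, so p-values measure the spread between these samples. The titles of the tumour-derived cultures name their E16C and P0C sources MB 1 and the P0F source Glioma 1. These may be tumour 1 of each origin. Tumour samples can hold host cells. In such bulk samples, fewer cells of a type and less RNA per cell cannot be told apart.

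Array medians ran from 7.86 to 8.25 on the log2 scale, on which all levels and differences below are given unless a fold is named. Percentile 25 of all values is 6.30, and a level below it may be held up by background. Genes of photoreceptors and Group 3 medulloblastoma averaged 11.17 to 12.34 in 28 GTML tumours and 6.96, 8.48, 9.70 and 7.21 in GTML tumours 20, 22, 30 and 31, which stood apart. Neuron genes averaged 11.67 and 11.75 in tumours 20 and 30, above the highest of the 28 others at 9.55. Among the cultures, the P0F GFP NSCs averaged 9.10 for the photoreceptor list, where the other GFP NSCs averaged 6.53 to 6.65. Granule neuron precursor genes averaged 10.92 to 11.19 in the P7 cerebella and at most 9.77 in GTML tumours. The sorted and unsorted P0C GFP samples correlated at 0.9908 over all probes, just under the 0.9915 to 0.9968 between cerebella. Their mean stands for P0C GFP NSCs where origins are set side by side. In the fits they entered as separate arrays. The titles leave unsaid whether they share a culture. If they do, the fits treat 1 culture as replicates, and p-values against GFP NSCs may be too small.

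Oligodendrocytes arise from precursors that spread and divide in the developing brain and cerebellum, pass a committed stage and then myelinate axons. Olig2 is a basic helix-loop-helix factor that specifies the lineage and is also active in neural progenitors and many gliomas. Gpr17 is a G protein-coupled receptor of committed precursors that is switched off before myelination. Vcan (versican) is a chondroitin sulphate proteoglycan and Tnr (tenascin R) a glycoprotein of the same brain matrix, and both are made by precursors, among other cells. Tmeff2 is a membrane protein with follistatin and EGF-like domains.

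The 5 genes lie on mouse chromosomes 16 (Olig2), 18 (Gpr17), 13 (Vcan) and 1 (Tnr and Tmeff2). Since all 5 were higher in P0C than in E16C tumours, the 250 bases before the RefSeq start are shown for the 4 genes printed here, from RefSeq on GRCm38.p6, 5' to 3' on the gene's strand. Capitals mark each match to the E-box CANNTG, which basic helix-loop-helix factors such as Olig2 and N-myc bind, and to the SOX motif ACAAT in either direction (ATTGT).
Olig2, chr16:91225300-91225549, plus strand: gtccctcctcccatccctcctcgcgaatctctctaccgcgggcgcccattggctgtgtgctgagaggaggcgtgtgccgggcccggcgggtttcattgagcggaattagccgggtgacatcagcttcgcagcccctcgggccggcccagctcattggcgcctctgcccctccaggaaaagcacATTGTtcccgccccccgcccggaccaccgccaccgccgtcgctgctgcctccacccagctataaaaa
Vcan, chr13:89742513-89742762, minus strand: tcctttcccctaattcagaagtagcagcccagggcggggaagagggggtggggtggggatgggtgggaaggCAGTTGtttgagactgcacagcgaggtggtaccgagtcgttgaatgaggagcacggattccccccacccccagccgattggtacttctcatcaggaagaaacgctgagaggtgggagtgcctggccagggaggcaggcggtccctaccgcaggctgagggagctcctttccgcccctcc
Tnr, chr1:159523519-159523768, plus strand: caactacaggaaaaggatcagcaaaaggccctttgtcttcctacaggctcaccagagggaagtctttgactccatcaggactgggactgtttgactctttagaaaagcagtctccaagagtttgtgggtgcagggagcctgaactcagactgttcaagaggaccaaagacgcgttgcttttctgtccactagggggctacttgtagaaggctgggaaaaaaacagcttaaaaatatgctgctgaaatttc
Tmeff2, chr1:50927273-50927522, plus strand: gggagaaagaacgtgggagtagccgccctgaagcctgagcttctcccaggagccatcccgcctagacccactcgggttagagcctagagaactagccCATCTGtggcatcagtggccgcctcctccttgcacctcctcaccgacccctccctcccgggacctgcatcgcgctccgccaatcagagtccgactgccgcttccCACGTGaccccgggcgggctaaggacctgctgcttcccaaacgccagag
The Olig2 window held 1 SOX motif and no E-box, the Vcan window 1 E-box (CAGTTG) and the Tmeff2 window 2 E-boxes, one of them the N-myc form CACGTG. The Tnr window held neither. No sequence is shown for Gpr17. Of 32851 windows of this length, 66.2% held CANNTG, 6.02% CACGTG (counted within CANNTG) and 27.7% ACAAT on either strand, and a match is a description of the letters, not a bound site.

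Olig2 was high in NSC cultures and in tumours of P0 origin and low in tumours of E16C origin. It stood at 9.93, 10.74 and 9.97 in P0C tumours 1, 2 and 3 (10.21 ± 0.46, SD, n = 3), at 9.39, 9.57 and 9.94 in P0F tumours (9.63 ± 0.28, SD, n = 3) and at 7.46, 8.17 and 8.04 in E16C tumours (7.89 ± 0.38, SD, n = 3). All 6 tumours of P0 origin lay above all 3 E16C tumours, by 2.32 for P0C and 1.74 for P0F on average. P0C and P0F overlapped for Olig2 only by a hair, 9.94 in P0F tumour 3 against 9.93 in P0C tumour 1. The E16C tumours overlapped the P7 cerebella, which were labelled by another protocol and read 7.84, 7.86, 7.83, 8.11 and 8.02.

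Gpr17, the receptor of committed precursors, separated P0C tumours from the tumours of both other origins. P0C tumours read 11.28, 11.61 and 10.57 (11.15 ± 0.53, SD, n = 3), E16C tumours 5.95, 6.26 and 8.96 (7.06 ± 1.65, SD, n = 3) and P0F tumours 6.78, 7.29 and 8.40 (7.49 ± 0.83, SD, n = 3). The lowest P0C tumour lay above the highest of the other 6, and 2 E16C tumours were under 6.30. The mean of P0C tumours exceeded that of E16C by 4.09 and P0F differed from P0C by -3.66, while P0F and E16C overlapped.

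Tnr and Vcan, the matrix genes, were both highest in P0C tumours among the orthotopic tumours, but Vcan was bright at every origin and Tnr was not. Tnr read 9.95, 11.97 and 10.56 in P0C tumours (10.83 ± 1.04, SD, n = 3), 5.74, 5.94 and 7.28 in E16C tumours (6.32 ± 0.84, SD, n = 3) and 6.81, 7.33 and 8.14 in P0F tumours (7.42 ± 0.67, SD, n = 3). Vcan read 11.91, 12.13 and 11.25 in P0C tumours (11.76 ± 0.46, SD, n = 3), 10.87, 10.72 and 10.12 in E16C tumours (10.57 ± 0.40, SD, n = 3) and 9.94, 8.95 and 10.46 in P0F tumours (9.78 ± 0.77, SD, n = 3). For both genes every P0C tumour lay above the 6 orthotopic tumours of the other origins, with differences of 4.51 and 1.20 from E16C, and P0F differed from P0C by -3.40 and -1.98. Tnr was under 6.30 in E16C tumours 1 and 2, whereas the lowest Vcan level in the 9 tumours was 8.95.

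Tmeff2 read 12.65, 10.73 and 12.82 in P0C tumours (12.07 ± 1.17, SD, n = 3), 6.20, 8.24 and 9.04 in E16C tumours (7.83 ± 1.46, SD, n = 3) and 7.88, 8.04 and 8.46 in P0F tumours (8.13 ± 0.30, SD, n = 3). P0C tumour 2, the highest of the P0C tumours for the other 4 genes, was the lowest for Tmeff2. P0C tumours still lay above all E16C and P0F tumours, by 4.24 over E16C, and P0F differed from P0C by -3.94.

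For all 5 genes the P0C and E16C tumours did not overlap, with P0C higher, as held for 7.18% of 11917 genes tested in that comparison. For P0F under P0C, 4 of the 5 (all but Olig2) did not overlap, against 12.3% of genes, and for P0F over E16C 1 of 5 (Olig2), against 10.7%. These counts are what the genes were proposed for, and nothing is read from them. The comparisons share tumours, so their values are not independent of each other. E16C tumour 3 was the highest E16C tumour for Gpr17, Tnr and Tmeff2. Without it, the P0C excess over E16C was 5.04 for Gpr17, 4.99 for Tnr and 4.85 for Tmeff2.

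**Figure D1:**
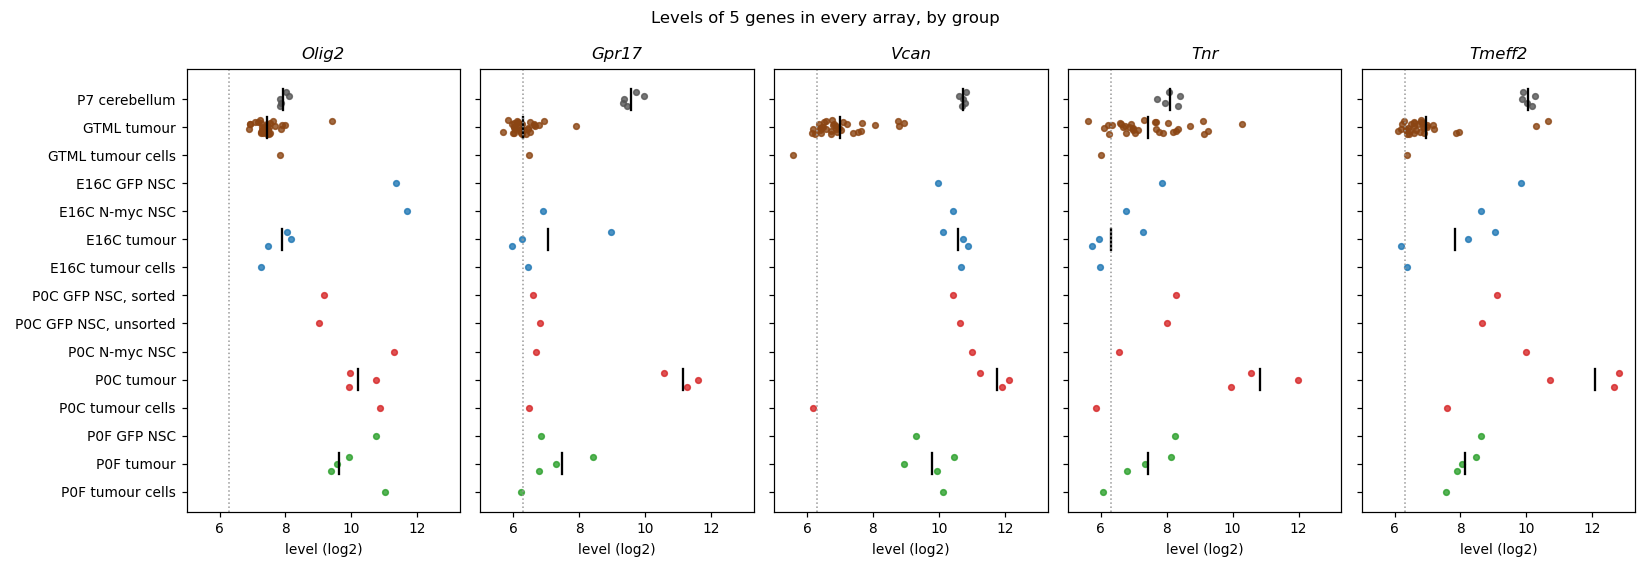
Level (log2) of each gene in every array, 1 panel per gene and 1 row per group, with the dotted line at 6.30, percentile 25 of all values. The 3 P0C tumours are the highest of the 9 orthotopic tumours for Gpr17, Vcan, Tnr and Tmeff2, GTML tumour 24 reaches 10.28 for Tnr, and Olig2 is highest in the E16C N-myc NSCs at 11.68.

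The cultures showed that a high Olig2 level did not come with a high Gpr17 level. Olig2 ran from 9.02 to 11.68 in the 6 NSC cultures, and Gpr17 from 6.24 to 6.90 in the 9 cultures with a value (it was blank in the E16C GFP NSCs). Sox10, the SOX factor that drives oligodendrocyte genes, ran with Gpr17: 6.91 to 7.48 in the 10 cultures and 11.12 ± 0.54 (SD, n = 3) in P0C tumours. Pdgfra, the growth factor receptor of early precursors, stood at 6.34 to 6.74 in the 6 NSC cultures. Other precursor genes did not all run low there. Cspg4 read 9.78, 9.54 and 9.36 in the E16C, sorted P0C and unsorted P0C GFP NSCs. It read 8.14 and 7.73 in the E16C and P0C N-myc NSCs, against 8.47 ± 2.02 (SD, n = 3) in P0C tumours. The 11 other precursor genes measured averaged 8.36 to 9.21 in the 6 NSC cultures and 9.46 to 11.63 in P0C tumours.

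Within E16C origin, Olig2 was high in NSCs and low in tumours and in the cells derived from one, with single cultures that allow a description only: 11.37 in GFP NSCs, 11.68 in N-myc NSCs, 7.89 on average in tumours and 7.26 in tumour cells. The differences of the 3 E16C tumours from the GFP culture ran from -3.91 to -3.19, and the mean difference was -3.47, or 11.1-fold. Olig1, the neighbouring gene and partner of Olig2, read 12.09, 12.07, 7.92 on average and 7.72 in the same order. For P0C origin, Olig2 read 9.18 and 9.02 in sorted and unsorted GFP NSCs, 11.28 in N-myc NSCs, 10.21 on average in tumours and 10.88 in tumour cells. For P0F origin it read 10.76 in GFP NSCs, 9.63 on average in tumours and 11.02 in tumour cells. Tumour cells thus held Olig2 above the mean of their tumours by 0.67 (P0C) and 1.38 (P0F), and the difference was -0.63 in E16C.

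In the P0C cultures the other 4 genes did not keep the tumour levels. Cells grown out of a P0C tumour read 6.48 for Gpr17, 6.19 for Vcan, 5.86 for Tnr and 7.59 for Tmeff2, which differs from the mean of P0C tumours by -4.67, -5.57, -4.96 and -4.47. Before transplantation, the P0C N-myc NSCs read 6.68 for Gpr17, 10.99 for Vcan, 6.56 for Tnr and 9.97 for Tmeff2. Gpr17 and Tnr were therefore low on both sides of the P0C tumour stage, and Vcan was low only in the cells grown out, among these P0C samples. Vcan in tumour cells of the other origins was 10.68 (E16C) and 10.12 (P0F), within the range of their tumours. Bcan (brevican), another matrix proteoglycan of precursors, read 12.47 in the P0C tumour cells, so the low Vcan there was not shared by it.

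Tnr was lower in N-myc NSCs than in GFP NSCs of both origins that had both, at 6.77 against 7.86 (E16C) and 6.56 against 8.27 and 8.00 (P0C). The P0F GFP NSCs read 8.25. Tmeff2 went opposite ways, 8.61 against 9.83 in E16C and 9.97 against 9.12 and 8.64 in P0C. Vcan was higher by 0.44 and 0.45.

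**Figure D2:**
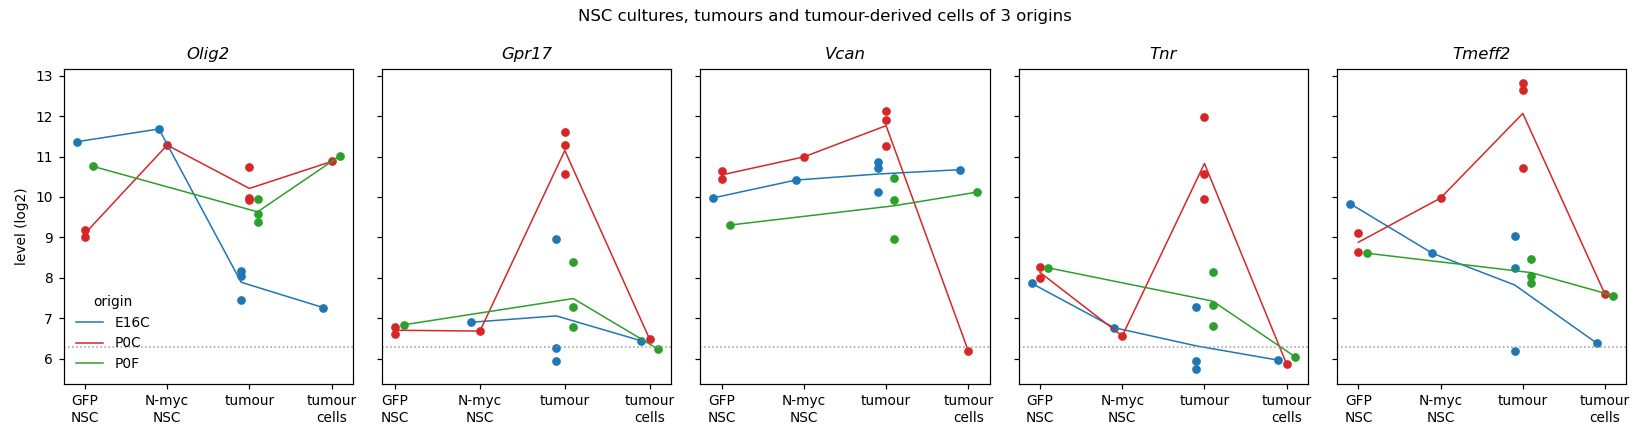
Level (log2) of each gene in GFP NSCs, N-myc NSCs, tumours and tumour cells, coloured by origin, with points for arrays and lines joining the means of an origin (P0F has no N-myc NSCs). Gpr17 and Tnr of P0C origin peak at the tumour stage, and Olig2 of E16C origin is at 11.68 in N-myc NSCs and at 7.89 on average in tumours.

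Across origins, each class of sample was compared with another in a model of the 18 arrays of the transplant series with origin as an additive term, fitted with limma to all genes. The residual spread was shared by all 18 arrays. It holds the spread between replicates and also any difference between origins in the class effects, for which the model had no term. The p-values of these 3 comparisons therefore do not measure replicate spread alone. The 5 genes were chosen by differences between tumours that are in this model, so their p-values are not independent of that choice. Of 12175 genes, 11.6% passed adjusted p 0.05 between tumours and GFP NSCs, and none of the 5 did. At unadjusted p under 0.05, 28% of genes and 1 of the 5 passed. Gpr17 was higher in tumours by 2.54 (SE 0.88, limma adjusted p = 0.0756), Olig2 lower (-0.77, limma adjusted p = 0.452), and Vcan, Tnr and Tmeff2 differed by 0.68, 0.40 and 0.65 (limma adjusted p = 0.56, 0.769 and 0.634). The Gpr17 value passed when blanks were filled (2.63, limma adjusted p = 0.0347) or without the P0F GFP NSCs (3.49, limma adjusted p = 0.0458). Over its alternatives, leaving out arrays included, that p ran from 0.0347 to 0.780.

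The average over origins joined opposite directions in 3 of the genes. Against GFP NSCs of their own origin, P0C tumours were higher in Olig2 (1.11), Tnr (2.69) and Tmeff2 (3.19), while E16C tumours were lower (-3.47, -1.54 and -2.01) and P0F tumours too (-1.12, -0.82 and -0.48). Each of the 3 tumours of an origin lay on the side of its mean. The genes were chosen by tumour differences between origins, and the share of all genes with such opposite directions was not computed. Vcan was higher in tumours of all 3 origins on average, by 0.59 (E16C), 1.22 (P0C) and 0.48 (P0F), and P0F tumour 2 lay below its culture. Gpr17 was higher on average by 4.45 in P0C and 0.65 in P0F tumours, and P0F tumour 1 (6.78) lay below its culture (6.84).

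In the same comparison, lists of the lineage moved in part. Of 11 other oligodendrocyte precursor genes tested, 1 rose (Sox10, 2.23, limma adjusted p = 0.0327) and none fell, with a median of 0.56 against -0.06 over all genes. Of 9 myelin genes, 3 rose (the myelin basic protein Mbp by 2.81, the tight junction protein Cldn11 by 2.24 and Mal by 0.81), with a median of 1.33. These calls rested on both P0C GFP samples: without the sorted or the unsorted one, 0 of the 9 myelin genes and 0 of the 11 precursor genes were called. Sox10 also lost its call without P0C tumour 1 or 3. Of 12 matrix partner genes, 1 fell (Tnc, tenascin C, by 1.98 on the log2 scale, limma adjusted p = 0.0141). Markers of cells that cultures lack moved with these: 9 of 9 microglia and 6 of 7 endothelial genes rose. The microglia list averaged 7.58 to 8.83 over the 9 tumours and 6.00 to 6.62 in GFP NSCs, and the part of host cells in the differences above was not tested.

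N-myc NSCs differed from GFP NSCs in 0.00796% of 12560 genes by limma (1 gene) and in 8.51% at unadjusted p under 0.05. None of the 5 genes was called, and 0 passed at unadjusted p under 0.05. Olig2 was higher by 1.78 (limma adjusted p = 0.615) and Tnr lower (-1.30, limma adjusted p = 0.779), and Gpr17, Vcan and Tmeff2 differed by 0.51, 0.44 and 0.26 (limma adjusted p = 0.955, 0.952 and 0.981). Both N-myc cultures lay below all 4 GFP cultures for Tnr, as did 7.67% of genes. With single cultures of each kind per origin, the size of these values is not well determined.

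Cells grown out of tumours differed from the tumours in 3.64% of 12373 genes, and again none of the 5 was called, while 4 of the 5 and 19.2% of genes passed at unadjusted p under 0.05. Gpr17, Vcan, Tnr and Tmeff2 were lower in the cells (-2.18, -1.71, -2.23 and -2.16) and Olig2 higher by 0.47, with limma adjusted p = 0.172, 0.232, 0.148, 0.177 and 0.76. The Vcan value rested on the P0C tumour cells and was 0.13 without them. Against E16C tumour 1 alone, the possible source, E16C cells were higher in Gpr17 (6.44 against 5.95), Tnr (5.96 against 5.74) and Tmeff2 (6.39 against 6.20). These levels are near or under 6.30. The same cells were lower in Olig2 (7.26 against 7.46) and Vcan (10.68 against 10.87). In P0C and P0F cells, Gpr17, Tnr and Tmeff2 were lower than in tumour 1 of the same origin. Among other precursor genes 1 of 11 fell (Pcdh15, a protocadherin, by 2.54 on the log2 scale, limma adjusted p = 0.0285, a call lost without the P0C or the P0F tumour cells), and Tnc rose by 2.30 (limma adjusted p = 0.022). Microglia genes fell in 8 of 9 and endothelial genes in 4 of 7, with the microglia list at 6.24 in P0C tumour cells, and their part in the values of the 5 genes was not tested.

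Beyond the 5 genes, the rest of the lineage was set against tumour origin. The list members and the 5 genes were measured on the same tumours, so they are not independent evidence of a direction. Between P0C and E16C tumours 0.705% of genes passed the test. None of the 11 other precursor genes passed, although all 11 differences were above 0, with a median of 2.52 against -0.02 over all genes. The nearest to the threshold were Olig1 (3.01, limma adjusted p = 0.0533) and Bcan (3.20, limma adjusted p = 0.0577), both chosen after their values were seen. Of 7 genes of committed precursors 1 rose, Bcas1, a marker of early myelinating cells (3.45, limma adjusted p = 0.0189), and the median was 2.33.

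Of 9 myelin genes, 4 rose in P0C over E16C tumours, with a median of 3.30: Omg (5.43), the galactolipid enzyme Ugt8a (4.26), the myelin enzyme Cnp (4.21) and Mbp (3.68). Of 14 transcription factors that work with or against Olig2, Zfp488, a repressor that promotes oligodendrocyte maturation, was the one that rose (2.55, limma adjusted p = 0.0374). These calls depended on single tumours. Without E16C tumour 1 no gene of the 4 lists was called, and Zfp488 was called only without E16C tumour 3 or P0C tumour 2 among the 9 settings that leave out a tumour. Omg was called in 8 of those 9 settings, all but the one without E16C tumour 1, and Bcas1 in 6, all but those without E16C tumour 1 or 2 or P0F tumour 2. The number of myelin genes called ran from 0 to 7, was highest without P0C tumour 2 and was 1 (Omg) in 5 settings. Without E16C tumour 3, 3 precursor genes were called (Bcan, Olig1 and Sox10), and without P0C tumour 2 Olig1 was. None of 11 matrix partner genes was called, and their median was 0.38. The lists of neuron, astrocyte, microglia and endothelial genes had no called gene, with medians of 0.24, 0.69, 0.25 and 0.25. The myelin list averaged 10.57, 8.31 and 9.30 in P0C tumours 1, 2 and 3, and 6.21 to 7.07 in E16C and 6.80 to 7.32 in P0F tumours. The order within P0C differed between lists, since other precursor genes averaged 9.84, 11.63 and 9.46, highest in tumour 2, where the myelin list was lowest.

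Between P0F and P0C tumours 1.18% of genes passed, and the lists held few of them: 0 of 11 precursor genes, 1 of 7 committed and 2 of 9 myelin genes and 1 of 14 Olig2 partners passed, all as lower in P0F, and 0 of 11 matrix partners. The medians were -1.43, -2.21, -2.70, -0.31 and -0.04 in that order, against 0.00 over all genes. Neu4, a sialidase, fell by 2.46 (limma adjusted p = 0.0487), Ugt8a fell by 3.89 (limma adjusted p = 0.0293), Mbp fell by 3.62 (limma adjusted p = 0.021) and Zfp488 fell by 2.63 (limma adjusted p = 0.0293) on the log2 scale. Nes, the intermediate filament of neural stem cells, was higher in P0F than in P0C tumours by 2.80 (limma adjusted p = 0.00894) and than in E16C tumours by 2.60 (limma adjusted p = 0.0273). Without P0F tumour 1, no gene at all was called between P0F and P0C tumours. The same held between P0F and E16C tumours without P0F tumour 1 or E16C tumour 1, so both Nes calls depended on single tumours. Without P0C tumour 1, P0F tumour 1 or P0F tumour 2, no gene of the precursor, committed, myelin or Olig2 partner lists was called between P0F and P0C tumours, and without P0C tumour 2, 5 myelin genes were. No gene of the precursor, committed or myelin lists passed between P0F and E16C tumours, where 0.277% of all genes did. Neuron genes averaged 7.01, 7.23 and 9.28 in P0C tumours 1, 2 and 3 and 8.23 to 8.67 in P0F tumours, and astrocyte genes 8.89 to 9.38 and 8.93 to 9.57. Their part in the difference was not tested.

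**Figure D3:**
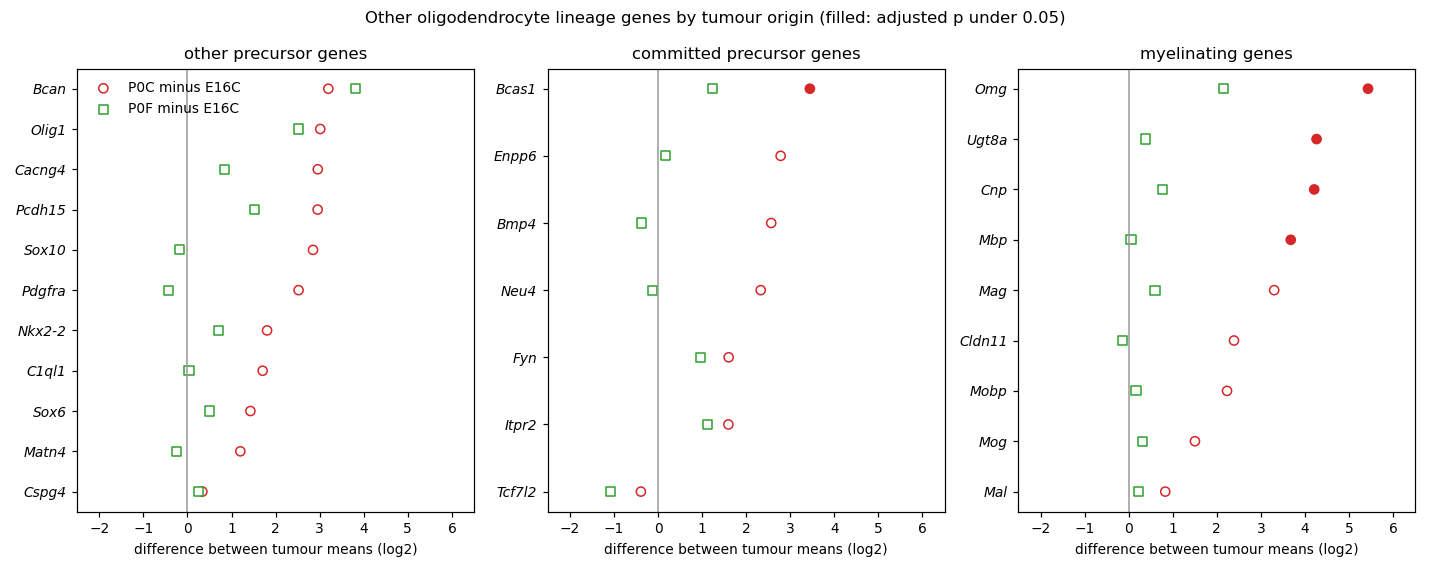
Difference between tumour means (log2) for other precursor, committed precursor and myelin genes, with circles for P0C minus E16C, squares for P0F minus E16C and filled symbols for limma adjusted p under 0.05. Omg has the largest difference, 5.43, and all filled symbols are P0C minus E16C.

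In GTML tumours, 3 of the 5 genes were far below normal P7 cerebellum. The cerebella came from P7 pups on Dox, so age and Dox may differ with the group and cannot be told apart from tumour. Of 12275 genes tested, 57.7% passed and 24.8% passed as lower in tumours, and 4 of the 5 genes passed as lower. Gpr17 read 9.45, 9.32, 9.36, 9.95 and 9.72 in the cerebella and 5.68 at the lowest, 6.23 at the median and 7.92 at the highest in tumours. No tumour reached a cerebellum, and 20 of the 32 tumours were under 6.30. Gpr17 fell by 3.25 on the log2 scale (SE 0.18, limma adjusted p = 4.92e-17), a 9.51-fold difference.

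Vcan read 10.71, 10.81, 10.74, 10.60 and 10.83 in the cerebella and 6.15, 6.80 and 8.95 at the lowest, median and highest in tumours, again without overlap. It fell by 3.73 on the log2 scale (SE 0.33, limma adjusted p = 1.06e-11), or 13.2-fold. Groups without overlap and lower in tumours made up 5.8% of genes tested.

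Tmeff2 read 10.18, 10.02, 9.86, 10.27 and 9.90 in the cerebella and 6.12, 6.68 and 10.65 at the lowest, median and highest in tumours. It fell by 3.10 on the log2 scale (SE 0.44, limma adjusted p = 4.5e-07), with 30 tumours below all cerebella. Tumours 30 and 20, at 10.65 and 10.28, lay above all of them, and these are the tumours with the neuron genes at 11.75 and 11.67 and the astrocyte genes at 11.01 and 11.08, where the 28 others reached 9.17. The myelin list averaged 9.83 and 10.06 in tumours 30 and 20 and at most 8.66 in the 28 others. The part of these cells in the Tmeff2 level was not tested. The same tumours were among the highest for Vcan, at 8.75 and 8.78, after tumour 26.

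Olig2 and Tnr were closer to the cerebella. Olig2 read 6.88 at the lowest, 7.37 at the median and 9.42 at the highest in GTML tumours, with 28 of 32 below all cerebella, 3 within their range and tumour 31 above. Olig2 fell by 0.48 on the log2 scale (SE 0.20, limma adjusted p = 0.0337), a call that was lost without any of 4 of the 5 cerebella in turn (limma adjusted p = 0.0509, 0.0524, 0.0908 and 0.0743 without cerebella 1, 2, 4 and 5), with quantile normalization (-0.32, limma adjusted p = 0.154) and with centred arrays (-0.34, limma adjusted p = 0.131). Over all its alternatives that p ran from 1.79e-05 to 0.154. Tumour 31, with Olig2 at 9.42, had the other precursor genes at an average of 7.11 and astrocyte genes at 6.33.

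Tnr read 8.34, 7.95, 7.71, 8.41 and 8.07 in the cerebella and 5.61, 7.08 and 10.28 at the lowest, median and highest in GTML tumours. Tumours lay on both sides of the cerebella, 21 below, 6 within and 5 above, and the difference was -0.66 (SE 0.47, limma adjusted p = 0.227). Tumours 24, 9, 2, 30 and 20 were the 5 above. Over the 28 typical tumours, the SD of Tnr was 0.98, larger than that of 99.4% of 14442 genes without blanks, where Vcan stood at 95.9%, Tmeff2 at 90.5%, Gpr17 at 64.3% and Olig2 at 63.8%.

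The other lineage lists were lower in GTML tumours as well, where the median over all genes was 0.10. The lists share genes, so their counts overlap: Olig1, Sox10 and Nkx2-2 count as precursor genes and as Olig2 partners. Bcan counts as a precursor gene and as a matrix partner. Of 11 other precursor genes 10 fell, with a median of -1.32, among them Pdgfra by 2.61, Bcan by 2.60 and the AMPA receptor partner Cacng4 by 1.94 on the log2 scale. Of 7 committed precursor genes 6 fell (Bcas1 by 2.65) and of 9 myelin genes 8 fell (Omg -2.73 and Cnp -2.72). Of 15 transcription factors that work with or against Olig2, 13 fell, with the helix-loop-helix inhibitor Id2 by 2.63, the E protein Tcf4 by 2.19 and Id4 by 2.14, and 2 rose, Nkx6-1 by 0.44 and Nkx6-2 by 0.39. Of 11 matrix partners 8 fell, with Tnc by 3.35 and Ncan (neurocan) by 1.57, and 3 rose, among them the link protein gene Hapln4 by 1.35. Without tumours 20, 22, 30 and 31 the precursor and committed counts were the same and all 9 myelin genes fell. Neuron genes averaged 11.22 to 11.47 and astrocyte genes 10.33 to 10.58 in the cerebella, against medians of 8.58 and 8.03 in tumours, and their part in these differences was not tested.

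**Figure D4:**
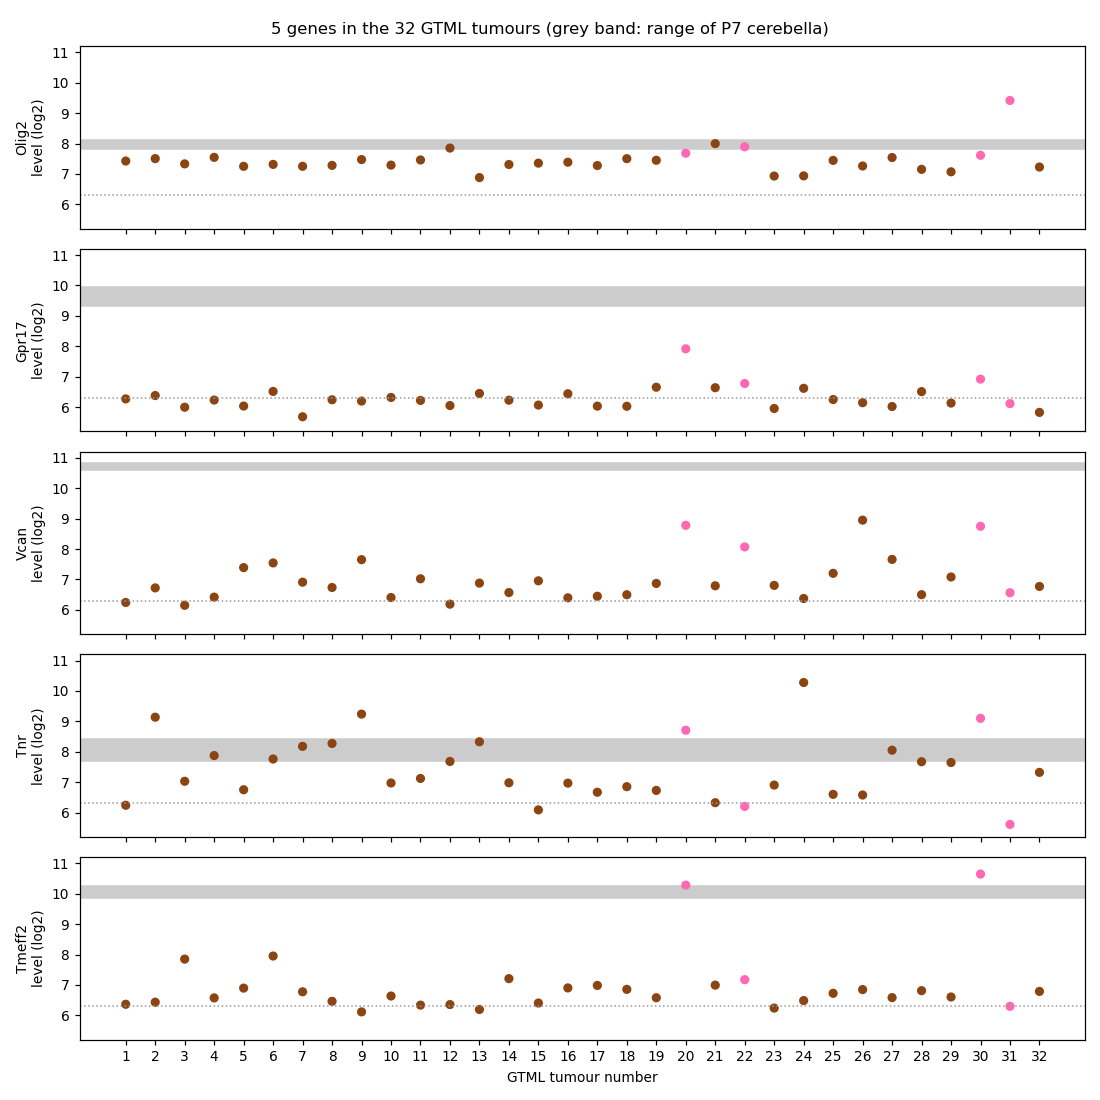
Level (log2) of each gene in GTML tumours 1 to 32, with the grey band for the range of the 5 P7 cerebella, the dotted line at 6.30 and pink points for tumours 20, 22, 30 and 31. Gpr17 and Vcan lie below the band in all 32 tumours, Tmeff2 in 30, and Tnr spreads from 5.61 to 10.28.

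The 5 genes did not vary together among the 28 typical GTML tumours. Over all 32 tumours, 3 of the 10 pairs passed a permutation test of Pearson's r: Gpr17 with Tmeff2 (r = 0.671, adjusted permutation p = 0.012), Vcan with Tmeff2 (r = 0.589, adjusted permutation p = 0.0142) and Gpr17 with Vcan (r = 0.483, adjusted permutation p = 0.0278). Their Spearman rho of 0.24, 0.181 and 0.165 did not pass (adjusted permutation p = 0.687 for each). Without the tumours farthest from the median of the first gene, 2 in each case, r was 0.11, 0.543 and 0.0774. Without the 4 tumours that stood apart r was 0.0192, 0.00378 and -0.0867, so the relations rest on those 4, and no pair passed (smallest adjusted permutation p = 0.947 for r and 0.94 for rho).

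Orthotopic tumours were above GTML tumours in 4 of the 5 genes, where 59.6% of 12044 genes passed and 26.7% passed as higher. Vcan was higher by 3.69 (limma adjusted p = 3.95e-14), without overlap, as held for 1.9% of genes. Tmeff2 was higher by 2.39 (limma adjusted p = 6.33e-05), Gpr17 by 2.26 (limma adjusted p = 2.46e-06) and Olig2 by 1.80 (limma adjusted p = 1.11e-08). Tnr differed by 0.76 (limma adjusted p = 0.192). This fit had no term for origin. P0C, P0F and E16C tumours averaged 11.15, 7.49 and 7.06 for Gpr17, against 6.31 in GTML tumours. In the same order they averaged 12.07, 8.13 and 7.83 for Tmeff2 (GTML 6.95) and 10.21, 9.63 and 7.89 for Olig2 (GTML 7.45). E16C tumours 1 and 2 read 5.95 and 6.26 for Gpr17, where the GTML median was 6.23. E16C tumour 1 read 6.20 for Tmeff2, where the GTML median was 6.68. The labels give the GTML tumours and P7 cerebella another labelling protocol than the transplanted tumours, so protocol and tumour kind cannot be told apart. The 5 genes were also chosen by differences between these orthotopic tumours, so their p-values here are not independent of that choice. Of the other lists, 10 of 11 precursor genes rose (the SOX factor Sox6 by 3.39), 6 of 7 committed genes and 4 of 9 myelin genes. Markers of other cells moved with them: 7 of 8 stem cell genes (median 2.08), 5 of 8 astrocyte genes (median 1.32) and 4 of 8 microglia genes rose, 4 of 8 neuron genes fell, and 1 stem cell and 1 microglia gene fell. The stem cell list averaged 9.47 to 10.88 over orthotopic and 6.95 to 9.48 over GTML tumours. The part of other cells in the values of the 5 genes was not tested.

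The order of groups by mean level shows where each gene was found, with levels of both labelling protocols side by side. Gpr17 was highest in P0C tumours (11.15), then P7 cerebella (9.56 ± 0.27, SD, n = 5), then P0F (7.49) and E16C tumours (7.06), which overlapped each other and the NSC cultures. Tmeff2 followed with P0C tumours (12.07), P7 cerebella (10.05 ± 0.18, SD, n = 5) and the P0C N-myc NSCs (9.97), the latter within the range of the cerebella. Vcan was highest in P0C tumours (11.76), then the P0C N-myc NSCs (10.99), P7 cerebella (10.74 ± 0.092, SD, n = 5) and E16C tumour cells (10.68), and lowest in the GTML tumour cells (5.57). Tnr was highest in P0C tumours (10.83), after which the P0C and P0F GFP NSCs (8.27, 8.25 and 8.00) lay within the range of P7 cerebella (8.10 ± 0.29, SD, n = 5). Olig2 was highest in the E16C N-myc and GFP NSCs and lowest in E16C tumour cells (7.26) and GTML tumours (7.45 ± 0.44, SD, n = 32). The GTML tumour cells read 7.85 for Olig2, 6.49 for Gpr17, 6.01 for Tnr and 6.39 for Tmeff2.

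Genes with the most similar pattern over the 18 arrays of the transplant series were ranked by Pearson's r, as a description over arrays that share origins and culture or tumour state. For Olig2 these were Olig1 (r = 0.972), Cdh20 (0.941) and Mdga2 (0.935). For Gpr17, over 17 arrays, they were Sox10 (0.968), Neu4 (0.953) and Lims2 (0.948), while Olig2 reached 0.176. For Tmeff2 they were Cnp (0.922), Ugt8a (0.901) and Gjc3 (0.889), for Tnr Dnm3 (0.910), Cyfip2 (0.905) and Cyp2j9 (0.894), and for Vcan Lama4 (0.721), Mical3 (0.709) and Dock9 (0.695). Between the members, Gpr17 with Tnr reached 0.889 and Gpr17 with Tmeff2 0.829, but Olig2 with Vcan -0.178.

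The similar genes were others within GTML tumours. Over 32 tumours the first was Mapk13 for Olig2 (r = 0.916), Grid2ip for Gpr17 (0.828), St7 for Vcan (0.792), Abhd3 for Tnr (0.835) and Dync1i1 for Tmeff2 (0.963). Over the 28 typical tumours it was Cela3b for Olig2 (0.844), Ngb for Gpr17 (0.609), Fgd6 for Vcan (0.764), Paqr3 for Tnr (0.812) and Sparcl1 for Tmeff2 (0.877). Abhd3 and Paqr3 were the first and second for Tnr over 32 tumours and the second and first over 28.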

How the data were processed

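Values are log2 levels that the authors deposited, made with RMA on build mm9 per the submitters' processing notes; the sources used here do not state RMA settings or why 3.12% of cells are blank. Blanks were left missing. Probes with 1 gene symbol were kept (15620; 1370 had several and 841 none), and the probe with the highest mean stood for each of 375 genes with several. Titles set the groups, because the cell type tags of 3 E16C samples disagree with their titles. Genes above percentile 25 of all values (6.30) in at least the number of arrays of the smaller group were tested with limma 3.58.1 in R 4.3.3, with Benjamini-Hochberg adjustment and a threshold of 0.05; all 5 genes passed the filter in every comparison. GTML tumours were fitted with P7 cerebella, orthotopic tumours together by origin, and orthotopic with GTML tumours. Relations between genes were tested with 100000 permutations. The fits were also run on simulated data with independent noise and additive effects. Those data held no class effects that differ between origins and no shared cultures, so they show nothing about either.

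The 5 genes, the gene lists and the tests were chosen with earlier results of these data known. The plan was to name at most 3 called genes with the largest difference from each list, and for likeness the 3 with the highest r. The text names more in places, among them all 4 myelin genes called between P0C and E16C tumours. The 2 Olig2 partners that rose in GTML tumours are also named beside 3 that fell. Genes short of the threshold, such as Olig1 and Bcan, and levels of single list genes are given too. Some genes are in several lists, so list counts are not independent of each other. Alternatives were other filters, the mean of probes, quantile normalization, centring, robust eBayes, filled blanks, replicate blocks and leaving out arrays. Same-numbered samples of different tumour origins, and of GTML tumours and cerebella, did not deviate together (r from -0.16 to 0.20). Numbers were therefore not taken to pair samples across these groups. Whether the number in the titles of tumour-derived cultures ties them to a tumour was not tested. Leaving out GTML tumours 20, 22, 30 and 31 from the relations, and single arrays from the counts of list genes, was chosen after seeing the data.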

Additional observations from a re-analysis of the deposited data

Results flagged for a closer look

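In 3 of the 5 genes the tumours of one origin lay on the other side of their GFP NSCs than the tumours of another. For Olig2 the 3 P0C tumours were above the P0C GFP NSCs (mean difference 1.11) and the 3 E16C and 3 P0F tumours below theirs (-3.47 and -1.12). For Tnr the values were 2.69, -1.54 and -0.82, and for Tmeff2 3.19, -2.01 and -0.48. The GFP NSCs are single cultures, apart from the sorted and unsorted P0C samples, and the difference between origins was not tested. The genes were chosen by differences between tumours of different origin, which favours such a pattern. The share of all genes that show it was not computed, so nothing is read from the count.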

How the results depend on the processing

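Of 573 values of the 5 genes in tested comparisons under alternatives, 549 kept their direction and side of the threshold, 9 lost a call, 2 gained one and 13 changed sign. Of 255 values between origins, which carry no test, 252 kept their sign and moved by less than the SD within origins, and 3 changed sign. Many of these settings could not move the difference between origins: filters, the mean of probes, robust eBayes, filled blanks, the replicate block and leaving out tumours of the origin not compared. In tested comparisons filters, the mean of probes and robust eBayes could change only the p-value. Both counts therefore overstate how far the values were tried. Gpr17, Vcan and Tmeff2 stayed below P7 cerebella in GTML tumours under every alternative run, from -2.95 to -4.15, with or without the 4 tumours that stood apart. Olig2 in GTML tumours lost its call with quantile normalization (-0.32) and centring (-0.34) and ran from -0.51 to -0.44 without each cerebellum. Between orthotopic tumours and GFP NSCs, Gpr17 gained a call with filled blanks (2.63), Tnr and Tmeff2 turned to -0.66 and -0.86 without both P0C GFP arrays, and without single arrays the ranges were -1.19 to 0.21 (Olig2), 2.15 to 3.49 (Gpr17) and -0.049 to 0.82 (Tnr). Between N-myc and GFP NSCs, Gpr17 and Tmeff2 turned to -1.31 and -1.39 without both P0C GFP arrays, and without single arrays the ranges were -0.76 to 2.17 (Gpr17), -2.61 to 0.13 (Tnr) and -0.28 to 1.19 (Tmeff2). For tumour cells against tumours they were -0.073 to 1.42 (Olig2) and -2.70 to 0.13 (Vcan), and for P0F against E16C tumours -0.12 to 1.38 (Gpr17) and -0.51 to 0.91 (Tmeff2). The cause of these changes was not tested.

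Counts of called genes moved most with few arrays. Tumours against GFP NSCs gave 918 without forebrain arrays, 312 without both P0C GFP arrays and 564 to 1557 without single arrays (1408 with all arrays; 564 without the sorted and 693 without the unsorted P0C GFP array). N-myc against GFP NSCs gave 4 with filled blanks, 2 without forebrain arrays and 0 to 9 without single arrays (9 without the E16C N-myc NSCs). Tumour cells against tumours (450) gave 292 with quantile normalization, 51 without forebrain arrays and 118 to 501 without single arrays (118 without the P0C and 135 without the P0F tumour cells). Without single tumours, P0C against E16C (84) gave 23 (without E16C tumour 1) to 227 (without E16C tumour 3), P0F against E16C (33) 0 (without E16C tumour 1 or P0F tumour 1) to 82 (without P0C tumour 2), and P0F against P0C (141) 0 (without P0F tumour 1) to 253 (without P0C tumour 2). Of the calls between tumours and GFP NSCs 36.9% were higher in tumours, against 59.7% with quantile normalization and 55.9% with centring; for GTML tumours against cerebella the share was 57.0%, and 69.4% with centring, and for tumour cells against tumours 46.9%, and 34.2% with quantile normalization.

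Replicate numbers, which were not taken to pair samples across groups, were also used as a block. The counts were then 80 for tumour cells against tumours, 36 for P0C and 0 for P0F against E16C, 25 for P0F against P0C and 3350 for orthotopic against GTML tumours numbered 1 to 3. In the last, Olig2 (1.82, limma adjusted p = 0.0525), Gpr17 (2.35, 0.178) and Tmeff2 (2.46, 0.171) lost their calls with 12 arrays in the fit. All blocks kept the direction of the 5 genes, although between origins a balanced block cannot change the differences.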
